A study of Mus musculus with 16 samples.

Results

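A set of 9 genes that mark macrophages were followed in gastrocnemius, a muscle of the calf, of mice with and without a tumor. The 9 genes were Adgre1, Cd68, Csf1r, Mrc1, Cd163, Lyz2, C1qa, C1qb, and C1qc, taken by name from the 21923 genes of the deposited count table. All 9 were found. None of the 9 was at 0 counts in any of the 16 libraries, the lowest value being 126 counts, and all 9 passed the filter on low counts in each of the 5 comparisons. The 16 libraries were made from poly(A) RNA, 1 mouse each, with 4 mice in each of 4 groups. NOR mice were given PBS in place of tumor cells, and CAC mice carried a tumor under the skin of the flank. AM mice are titled T in the sample labels. AM mice carried the same tumors and received amiloride, a blocker of sodium transport, at 2 mg/kg every day from day 9, given into the peritoneum, while the NOR, CAC, and KD mice received PBS by the same route. KD mice carried tumors grown from Rab27-knockdown cells, Rab27 being a GTPase that secretory vesicles need to reach the membrane. In each group, replicates 1 and 2 were C57BL/6 mice with LLC (Lewis lung carcinoma) cells in the tumor-bearing groups, and replicates 3 and 4 were BALB/c mice, spelled BABL/c in the sample labels, with CT26 (colon carcinoma) cells. Strain and tumor line therefore cannot be told apart. The mice were 6 to 8 weeks old at the start, muscles were taken on day 30, and the hosts carried no engineered allele. The knockdown was in the injected tumor cells, so RNA of the host muscle does not show it. All values below are CPM, the counts of a gene scaled to the size of its library and between libraries by the trimmed mean of M-values (TMM), unless FPKM, which also divides by the length of the transcript, is named. In whole muscle, more macrophages and more RNA per macrophage cannot be told apart.

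Macrophages are phagocytes that live in every tissue, and in muscle they sit between the fibres, clear debris and iron, and shape repair. Adgre1 encodes F4/80, a surface receptor used to stain mouse macrophages. Csf1r encodes the receptor for CSF1 and IL-34, the growth factors on which macrophages depend. Mrc1 (the mannose receptor CD206) and Cd163 (the receptor that takes up haemoglobin bound to haptoglobin) are scavenger receptors, Cd68 encodes a glycoprotein of the endosome and lysosome membrane, and Lyz2 encodes lysozyme M, which neutrophils make too. C1qa, C1qb, and C1qc encode the chains that together form C1q, the recognition part of the classical complement pathway.

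The libraries held 35913190 to 61032708 counts, and any pair of libraries of a group differed by a chi-square of at least 66.6 per degree of freedom, where counting alone gives about 1, so none was a duplicate. No labels tie the mice to litters or days. Muscle fibre genes such as Acta1, the actin of skeletal muscle, summed to 58190 to 178357 CPM. The libraries fell into separate sets by lymphocyte genes. In 11 libraries the 8 B cell genes summed to 41.1 to 531 CPM, and in the other 5 (NOR replicate 1, CAC replicates 1 and 4, and KD replicates 2 and 3) they summed to 0.596 to 3.42 CPM. The 8 T cell genes summed to 17.7 to 176 CPM in the former and 1.07 to 4.69 CPM in the latter, where up to 3 of the B cell genes and up to 4 of the T cell genes were at 0 counts. The former are called lymphocyte-rich and the latter lymphocyte-poor. AM replicate 1 also held 1724 CPM of liver genes, and KD replicate 3 had 0 counts of the 4 Y-linked genes, which summed to 111 to 174 CPM in every other library. The growth protocol names C57BL/6 males and BALB/c mice of both sexes, the methods name males alone, and the sex of each mouse is not given.

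C1qa, C1qb, and C1qc lie side by side on the minus strand of chromosome 4 (GRCm38, GENCODE M21), with C1qb at 136880129 to 136886187, C1qc at 136889804 to 136893065, and C1qa at 136895917 to 136898803. The other members are scattered, with Adgre1 on chromosome 17 (57358691 to 57483527, plus strand), Cd68 on chromosome 11 (69664213 to 69666153, minus strand), Mrc1 on chromosome 2 (14229392 to 14332057, plus strand), Cd163 on chromosome 6 (124304656 to 124330527, plus strand), and Lyz2 on chromosome 10 (117277331 to 117282321, minus strand). The promoters of C1qb and C1qc, neighbours whose levels moved together from mouse to mouse, are shown with that of Mrc1, which moved less closely with them. Each runs from 250 bases before to 50 bases after the RefSeq start on the gene's own strand (GRCm38.p6), and capitals mark GAGGAA, a core that PU.1 and other ETS factors bind, or its reverse complement.
C1qb (chr4:136886151-136886450, minus strand): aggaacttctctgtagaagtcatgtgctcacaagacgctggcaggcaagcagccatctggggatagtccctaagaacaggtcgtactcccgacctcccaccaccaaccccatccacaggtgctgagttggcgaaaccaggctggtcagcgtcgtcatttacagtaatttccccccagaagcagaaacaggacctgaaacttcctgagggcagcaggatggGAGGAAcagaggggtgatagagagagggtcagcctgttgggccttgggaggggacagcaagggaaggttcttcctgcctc
C1qc (chr4:136892865-136893164, minus strand): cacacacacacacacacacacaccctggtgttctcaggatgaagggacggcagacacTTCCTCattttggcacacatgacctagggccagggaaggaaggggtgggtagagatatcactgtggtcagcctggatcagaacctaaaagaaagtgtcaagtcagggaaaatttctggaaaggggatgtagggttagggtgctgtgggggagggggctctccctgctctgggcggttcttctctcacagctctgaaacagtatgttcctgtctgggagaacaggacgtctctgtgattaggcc
Mrc1 (chr2:14229164-14229463, plus strand): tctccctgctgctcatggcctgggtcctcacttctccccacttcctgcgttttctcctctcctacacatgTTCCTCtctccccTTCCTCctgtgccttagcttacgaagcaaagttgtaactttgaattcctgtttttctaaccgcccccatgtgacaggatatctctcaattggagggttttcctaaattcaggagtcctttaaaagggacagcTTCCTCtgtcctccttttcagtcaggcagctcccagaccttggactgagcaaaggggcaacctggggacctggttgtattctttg
GAGGAA on either strand stood in 4 of the 6 member promoters in the table (C1qb, C1qc, Cd68, and Mrc1, but not Cd163 or Lyz2), against 28.3% of all 32851 promoters of the same length. In C1qb it began 30 bases before the start, in C1qc 193 bases before, and in Mrc1 180, 167, and 35 bases before. Of the other motifs searched on both strands, TGAGTCA (AP-1) was found in Cd68 alone and in 5.2% of all promoters, while TGCTGAC (a MAF half-site, 4.67% of all promoters) and TATAAA (the TATA box, 13.6%) were found in none of the 6. These matches are letters in a window and were not tested as sites.

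Per unit of length, Lyz2 was the most abundant member in 16 of 16 mice, with 249 ± 128 FPKM (SD, n = 16). The complement chains followed, with C1qa at 38.2 ± 18.1, C1qb at 36.2 ± 16.5, and C1qc at 29.5 ± 14.1 FPKM (SD, n = 16). C1qb was above C1qc in 16 of 16 mice, whereas C1qa was above C1qb in only 7 of 16, so that C1qa and C1qb did not differ in order. Csf1r at 14.1 ± 7.10 and Cd68 at 13.7 ± 7.07 FPKM came next and crossed each other (Csf1r was the higher in 10 of 16 mice). Adgre1 at 7.98 ± 8.35, Mrc1 at 6.61 ± 3.76, and Cd163 at 5.60 ± 2.88 FPKM closed the order, and their neighbours changed places, Adgre1 being above Mrc1 in 8 and Mrc1 above Cd163 in 9 of 16 mice. Of the 31-base words in the Lyz2 transcripts, 32.8% also occur in Lyz1, the neighbouring lysozyme gene, and 14.9% of the Csf1r words occur in other genes, chiefly the overlapping gene Hmgxb3 on the opposite strand, so reads of those stretches may have been counted on either gene. For the other members this share was at most 0.583% (Cd163).

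Adgre1 was 7.12, 9.79, 9.74, and 9.14 CPM in NOR replicates 1 to 4, and 9.33, 7.05, 15.1, and 56.96 CPM in CAC replicates 1 to 4. It was 6.99, 14.6, 8.52, and 9.53 CPM in the AM mice and 13.4, 3.43, 2.34, and 14.6 CPM in the KD mice. A single CAC mouse, replicate 4, stood far above all others, and the other 3 CAC mice (7.05 to 15.1 CPM) overlapped the NOR mice (7.12 to 9.79 CPM).

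Csf1r was 27.2, 62.4, 55.5, and 76.7 CPM in the NOR mice and 42.3, 56.6, 74.0, and 36.6 CPM in the CAC mice. The AM values of 71.6, 81.6, 65.2, and 60.9 CPM were the narrowest of the 4 groups, and the KD values of 108, 15.4, 11.9, and 87.5 CPM the widest. KD replicate 1 held the highest and KD replicate 3 the lowest Csf1r level of all 16 mice. The ligand genes passed the test in none of the 5 comparisons, Csf1 being 31.2 ± 5.84 CPM in NOR and 24.3 ± 2.99 CPM in CAC and Il34 being 11.4 ± 3.20 and 12.0 ± 3.21 CPM (SD, n = 4).

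Mrc1 was 19.9, 30.9, 32.5, and 43.0 CPM in the NOR mice, and 38.6, 30.0, 28.9, and 14.3 CPM in the CAC mice. In the AM mice it was 35.5, 44.1, 51.8, and 32.2 CPM, and in the KD mice 72.7, 7.97, 6.35, and 64.3 CPM. The NOR, CAC, and AM ranges overlapped, and KD replicates 1 and 4 lay above every mouse of those groups while KD replicates 2 and 3 lay below every one.

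Cd163 was 11.001, 19.6, 11.2, and 37.0 CPM in the NOR mice and 44.6, 31.6, 27.9, and 25.7 CPM in the CAC mice. It was 17.4, 26.6, 31.2, and 14.2 CPM in the AM mice and 31.2, 8.02, 7.00, and 43.9 CPM in the KD mice. NOR replicate 4 lay among the CAC mice, and the other 3 NOR mice lay below all of them.

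Cd68 was 4.17, 13.5, 12.4, and 18.0 CPM in the NOR mice and 12.2, 17.7, 20.2, and 12.9 CPM in the CAC mice. It was 14.9, 18.7, 14.9, and 11.9 CPM in the AM mice and 24.6, 8.27, 2.79, and 30.4 CPM in the KD mice. The NOR, CAC, and AM mice overlapped except for the low NOR replicate 1. Lyz2 was 108, 283, 257, and 333 CPM in the NOR mice and 267, 299.7, 459, and 525 CPM in the CAC mice. In the AM mice it was 419, 419, 243, and 262 CPM, with both C57BL/6 mice above both BALB/c mice, and in the KD mice 551, 159, 60.6, and 399 CPM. Lyz1 was 9.58 to 33.8 CPM in NOR and 27.6 to 75.9 CPM in CAC mice, or 0.0612 to 0.180 of the Lyz2 level over all 16 mice.

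C1qa was 17.8, 35.1, 28.9, and 43.9 CPM in the NOR mice and 45.5, 36.6, 54.2, and 64.2 CPM in the CAC mice. C1qb was 17.3, 35.1, 30.7, and 46.1 CPM in the NOR mice and 52.4, 41.2, 58.2, and 55.8 CPM in the CAC mice. C1qc was 15.4, 33.9, 26.8, and 42.8 CPM in the NOR mice and 44.0, 33.5, 53.6, and 53.4 CPM in the CAC mice. For all 3 chains NOR replicate 4 overlapped the CAC range through CAC replicate 2, and NOR replicates 1 and 3 lay below every CAC mouse. In the AM mice C1qa was 39.1, 44.8, 39.1, and 32.1 CPM, C1qb 27.7, 51.7, 34.8, and 31.05 CPM, and C1qc 25.0, 42.9, 31.3, and 31.9 CPM. In the KD mice C1qa was 56.8, 14.3, 6.35, and 56.2 CPM, C1qb 46.0, 18.0, 8.11, and 59.1 CPM, and C1qc 43.3, 11.9, 6.53, and 54.8 CPM. The AM mice overlapped the NOR range for each chain. KD replicates 1 and 4 lay at its upper end or above, and KD replicates 2 and 3 at its lower end or below.

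**Figure D1:**
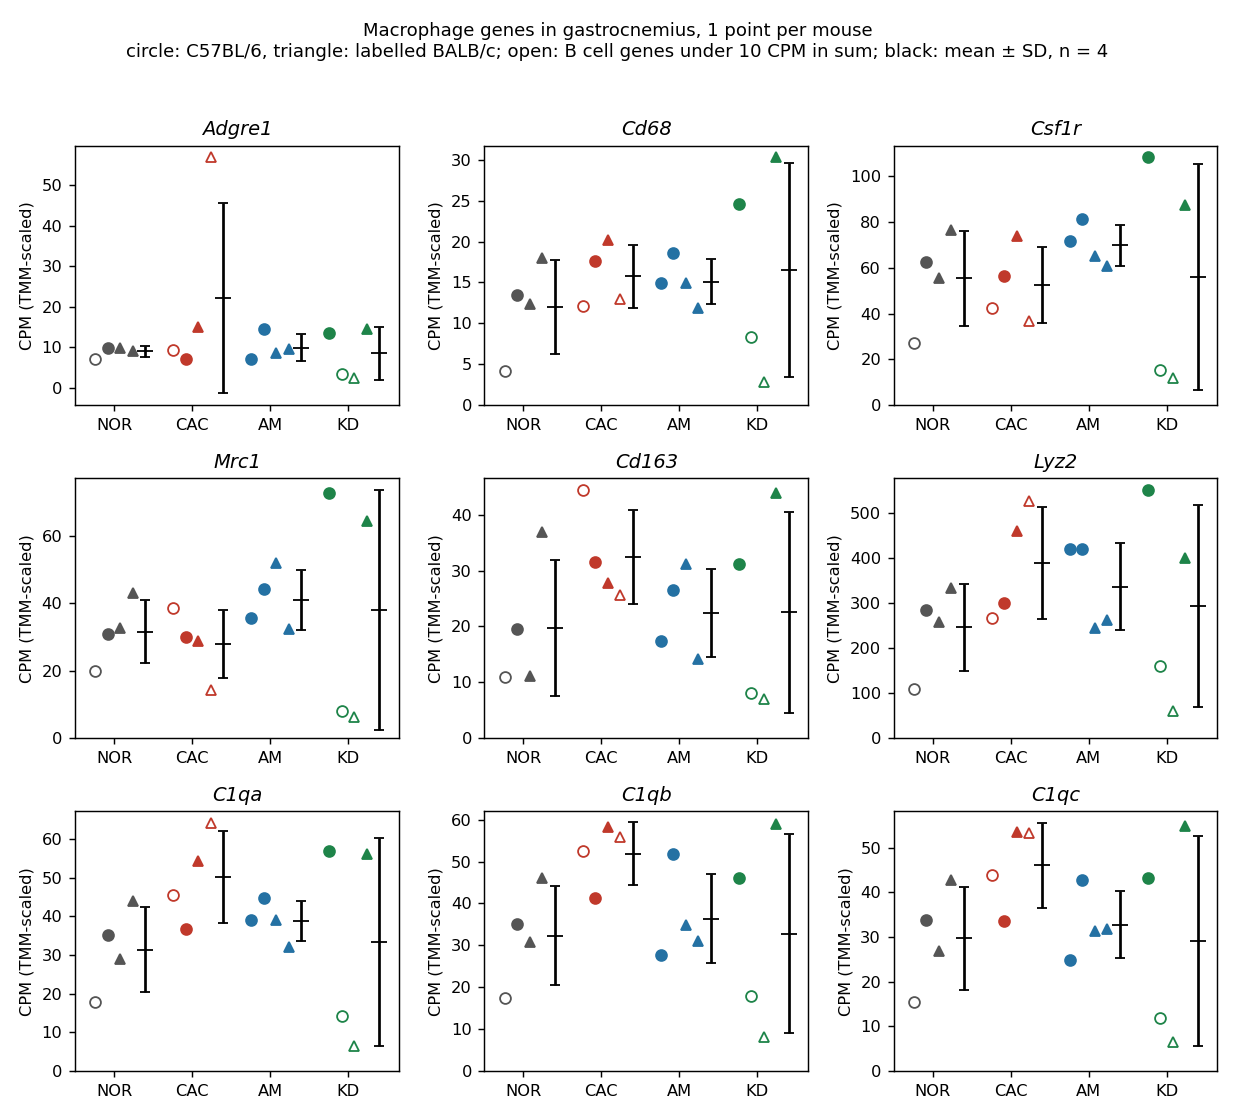
Level of each of the 9 macrophage genes in CPM (vertical axis) in the NOR, CAC, AM, and KD groups, 1 point per mouse, with C57BL/6 mice as circles, BALB/c mice as triangles, libraries with B cell genes under 10 CPM as open points, and the mean ± SD of 4 mice in black. KD replicates 1 and 4 lie above KD replicates 2 and 3 in every panel, and Adgre1 in CAC replicate 4 (56.96 CPM) stands apart.

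The comparison of CAC with NOR asks what a tumor in the flank does to these genes in the muscle. None of the 9 genes passed the test (edgeR quasi-likelihood F test with a Benjamini-Hochberg FDR no higher than 0.05, and a change of 1.5-fold or more), whereas 9.45% of the 14666 genes tested did (4.32% higher and 5.13% lower in CAC). For 0 of the 9 genes did the groups keep apart in CPM, against 12.5% of all genes with CAC higher and 10.8% with CAC lower. The unadjusted p was under 0.05 for 2 of the 9 (C1qa and C1qb), against 29.1% of all genes, and DESeq2 and limma-voom called 0 of the 9. For 7 of the 9 genes the log2 fold change was above 0, against 51.2% of all genes tested. The median was 0.67 against 0.01 over all genes tested. The members varied together from mouse to mouse, so their signs are not separate results. The chains of C1q had the narrowest intervals. C1qb had a log2 fold change of 0.69 (SE 0.25, 95% interval 0.11 to 1.27, edgeR FDR 0.109), from 32.3 ± 11.9 to 51.9 ± 7.498 CPM (SD, n = 4). C1qa had 0.68 (SE 0.27, 0.08 to 1.29, edgeR FDR 0.128) and C1qc 0.64 (SE 0.29, -0.01 to 1.29, edgeR FDR 0.177). A two-sided exact permutation test of the CPM gave p = 0.0571 for C1qa and C1qb and 0.0857 for C1qc, where 0.0286 is the smallest p that 4 against 4 mice can give.

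For Adgre1 the log2 fold change was 1.31 with an interval of -0.10 to 2.71 (edgeR FDR 0.201), and it was 0.24 without CAC replicate 4. Cd163 had a log2 fold change of 0.72 (-0.15 to 1.60, edgeR FDR 0.255), and Lyz2 one of 0.67 (-0.12 to 1.46, edgeR FDR 0.241). Leaving out NOR replicate 4 gave the only call of a member under any alternative, Cd163 with a log2 fold change of 1.21 and an edgeR FDR of 0.0342. The remaining values were 0.40 for Cd68 (-0.47 to 1.27, and 0.13 without the low NOR replicate 1), -0.07 for Csf1r (-0.80 to 0.66), and -0.17 for Mrc1 (-0.87 to 0.53). These intervals hold both a rise and a fall of 1.5 times for Csf1r, and do not show that its level was the same. Neutrophils make Lyz2 too. Of 12 neutrophil genes, 6 rose, among them S100a8 and Csf3r, and of the 6 Csf3r alone was still called in the lymphocyte-rich libraries, and the list summed to 14.7 to 51.1 CPM in NOR and 139 to 321 CPM in CAC mice. Their part in the Lyz2 value was not tested.

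The lymphocyte-poor libraries bear on this comparison, since 1 of the 4 NOR and 2 of the 4 CAC libraries were among them. Within the 11 lymphocyte-rich libraries (3 NOR and 2 CAC mice) the log2 fold change was 0.38 for C1qa, 0.45 for C1qb, 0.38 for C1qc, 0.26 for Adgre1, 0.43 for Cd163, and 0.42 for Lyz2. Within the lymphocyte-poor ones (1 NOR and 2 CAC mice) the same genes had 1.55, 1.57, 1.59, 2.15, 1.60, and 1.80, and Cd68 had 0.41 in the former and 1.52 in the latter. With a lymphocyte score as covariate over all 8 mice the values were 0.77 for C1qa, 0.84 for C1qb, 0.79 for C1qc, 0.77 for Adgre1, 0.82 for Cd163, 0.89 for Lyz2, and 0.84 for Cd68, with an edgeR FDR of at least 0.0711. Csf1r and Mrc1 were below 0 over all 8 mice without these changes. In the lymphocyte-rich, lymphocyte-poor, and score fits Csf1r had 0.047, 0.47, and 0.28, and Mrc1 had -0.23, 0.34, and 0.0039. No member passed the test in the lymphocyte-rich libraries or with the score, where 398 and 1653 of all genes did. In the lymphocyte-poor set, with a single NOR mouse, 0 of all genes passed, so that its 0 members say nothing. The part of lymphocyte content in the pooled values was not tested.

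**Figure D2:**
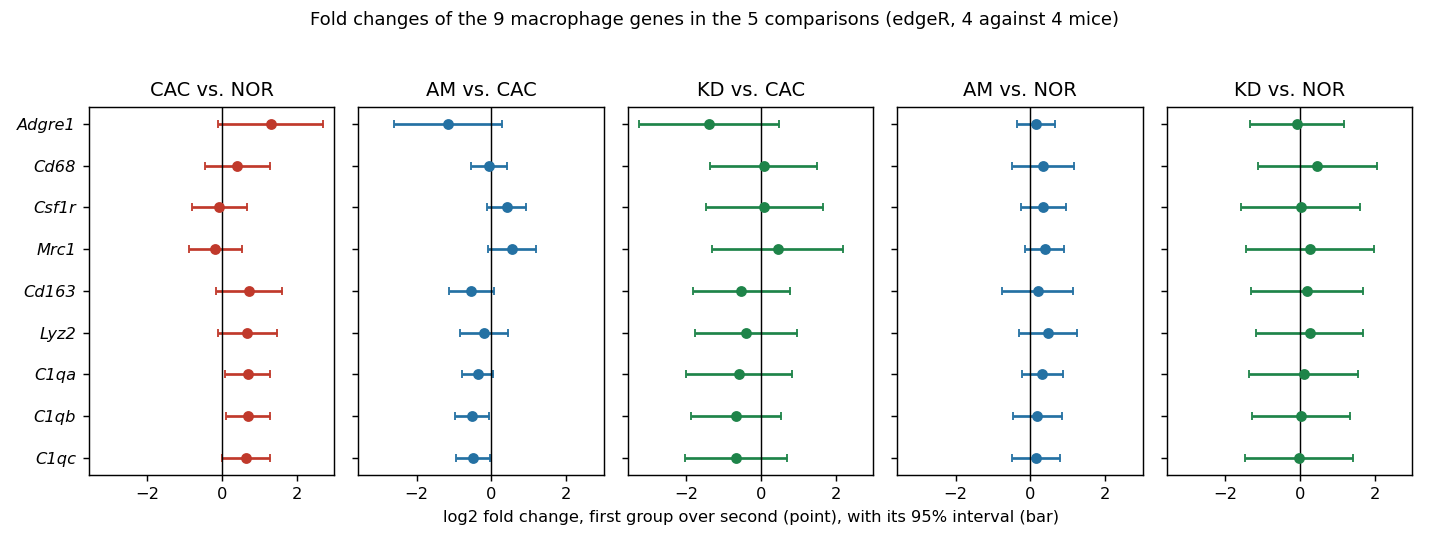
Log2 fold change (horizontal axis) of each of the 9 macrophage genes in the 5 comparisons, as points with 95% intervals from the edgeR fit of 4 against 4 mice. The interval lies wholly above 0 for C1qa and C1qb in CAC vs. NOR and wholly below 0 for C1qb and C1qc in AM vs. CAC before adjustment over all genes, and every interval with KD mice spans 0.

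The comparison of AM with CAC asks whether amiloride changes the levels found in tumor-bearing mice. Again 0 of the 9 genes passed, against 3.66% of the 14674 genes tested (1.63% higher and 2.03% lower in AM). The groups overlapped for all 9, whereas they did not for 6.05% of all genes with AM higher and 9.27% with AM lower. The unadjusted p was under 0.05 for 2 of the 9 (C1qb and C1qc), against 21.7% of all genes. DESeq2 and limma-voom called 0 of the 9. C1qb had a log2 fold change of -0.52 (SE 0.20, -0.97 to -0.07, edgeR FDR 0.173), with 36.3 ± 10.7 CPM in AM against 51.9 ± 7.498 CPM in CAC mice (SD, n = 4). C1qc had -0.50 (SE 0.20, -0.95 to -0.05, edgeR FDR 0.187) and C1qa -0.37 (SE 0.18, -0.77 to 0.03, edgeR FDR 0.273). Cd163 was at -0.54 (-1.15 to 0.07, edgeR FDR 0.288) and Adgre1 at -1.15 (-2.59 to 0.29, edgeR FDR 0.339), which was -0.10 without CAC replicate 4.

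Csf1r and Mrc1 had the opposite sign. Csf1r had a log2 fold change of 0.41 (-0.11 to 0.93, edgeR FDR 0.350) and Mrc1 one of 0.55 (-0.10 to 1.19, edgeR FDR 0.310, and 0.33 without CAC replicate 4), and neither passed. Cd68 (-0.07) and Lyz2 (-0.21) were nearer to 0, with intervals of -0.55 to 0.42 and -0.85 to 0.44. The CAC mice are the same animals here as in CAC vs. NOR, so the values of the 2 comparisons are not independent. All 4 AM libraries were lymphocyte-rich, and against the 2 lymphocyte-rich CAC libraries alone C1qb had -0.48, C1qc -0.43, C1qa -0.25, Cd163 -0.43, Lyz2 -0.20, and Mrc1 0.46. Adgre1 went to -0.19, Csf1r to 0.077, and Cd68 to -0.35 there. Without AM replicate 1, the library with liver genes, the values ran from -1.03 for Adgre1 to 0.61 for Mrc1, with Lyz2 at -0.34 and each of the 9 keeping its sign.

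Within the KD group the 9 genes differed widely from mouse to mouse. KD replicates 1 and 4 were above KD replicates 2 and 3 for each of the 9 genes, and KD replicate 3 was the lowest of all 16 mice for all 9. The coefficient of variation in KD was 72.4% for C1qb to 94.1% for Mrc1, in AM 12.9% for Csf1r to 35.3% for Cd163, in NOR 14.03% for Adgre1 to 61.9% for Cd163, and in CAC 14.4% for C1qb to 36.1% for Mrc1 apart from Adgre1 at 106%. Summed over the 9 genes, the KD mice held 947, 246, 112, and 810 CPM. KD replicates 2 and 3 were the lymphocyte-poor libraries of the group. The 3 lowest sums of all 16 libraries (KD replicates 2 and 3 and NOR replicate 1, with 228 CPM) were all in lymphocyte-poor libraries, and the other lymphocyte-poor libraries, CAC replicates 1 and 4, held 556 and 845 CPM, against 465 to 947 CPM in the lymphocyte-rich ones. The part of lymphocyte content in the KD split was not tested, nor was that of sex for KD replicate 3, the library without counts of the Y-linked genes.

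**Figure D3:**
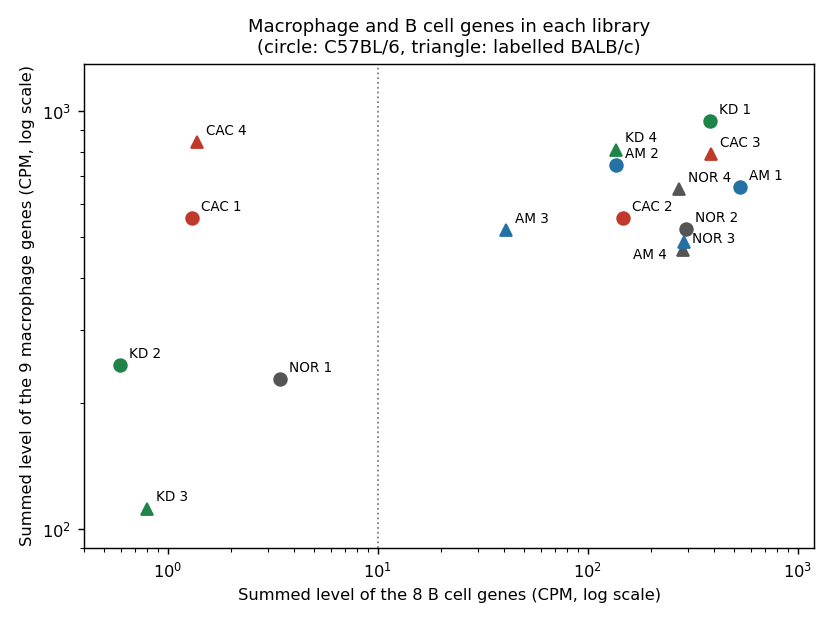
Summed level of the 9 macrophage genes (vertical axis, CPM, log scale) against the summed level of 8 B cell genes (horizontal axis, CPM, log scale) in each of the 16 libraries, with the dotted line at 10 CPM. Left of the line lie 5 libraries, of which NOR replicate 1 and KD replicates 2 and 3 hold 112 to 246 CPM of the macrophage genes and CAC replicates 1 and 4 hold 556 and 845 CPM.

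KD vs. CAC asks whether a tumor with less Rab27 leaves the muscle different, and here 0 of the 9 genes passed, against 0.00685% of the 14593 genes tested (1 gene). The groups overlapped for all 9, and kept apart for 3.71% of all genes with KD higher and 3.58% with KD lower. No member had an unadjusted p under 0.05, against 11.1% of all genes. The log2 fold change ran from -1.39 for Adgre1 (-3.26 to 0.48, edgeR FDR 0.572) to 0.44 for Mrc1 (-1.32 to 2.203, edgeR FDR 0.907). The Adgre1 value was -0.31 without CAC replicate 4, 0.31 in the lymphocyte-rich libraries, and 0.070 in the C57BL/6 mice alone. The chains of C1q had -0.58 (C1qa), -0.66 (C1qb), and -0.66 (C1qc), with intervals that all spanned 0, the narrowest being that of C1qb (-1.87 to 0.55). Without KD replicate 3 they were -0.24, -0.34, and -0.33, and the other members ran from -1.08 for Adgre1 to 0.79 for Mrc1, with Cd68 at 0.42, Csf1r at 0.43, Cd163 at -0.23, and Lyz2 at -0.067. The sign turned with the libraries kept. Among lymphocyte-rich mice (2 KD and 2 CAC) the chains of C1q had 0.29, 0.05, and 0.14. Among lymphocyte-poor mice (2 KD and 2 CAC) they had -2.37, -2.02, and -2.37. Cd68, Csf1r, and Mrc1 turned too, with 0.51, 0.56, and 1.19 in the former and -1.15, -1.49, and -1.85 in the latter.

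Against NOR, the treated and knockdown groups showed no call either. In AM vs. NOR 0 of the 9 genes passed (0% of 14738 genes tested, with 9.19% at an unadjusted p under 0.05). All 9 log2 fold changes lay between 0.15 and 0.47 (0.25 and 0.43 without AM replicate 1). These signs did not hold throughout. In the lymphocyte-rich libraries the values ran from -0.066 for C1qc to 0.22 for Lyz2. With BALB/c mice alone all members but Mrc1 were below 0, down to -0.23 for Lyz2. In KD vs. NOR 0 of the 9 passed (0% of 14748 genes tested, with 3.54% at an unadjusted p under 0.05). The values lay between -0.08 and 0.47 (0.24 and 0.82 without KD replicate 3). Over the fits that leave out a mouse Csf1r ran from -0.53 to 0.35. In the lymphocyte-rich libraries the values ran from 0.50 for C1qb to 0.96 for Mrc1. In the lymphocyte-poor ones, with NOR replicate 1 as the only NOR mouse, they ran from -1.51 for Mrc1 to 0.37 for Cd68. The groups overlapped for all 9 genes in both comparisons. Over all genes they kept apart for 2.29% with AM higher and 2.82% with AM lower, and for 1.31% with KD higher and 0.949% with KD lower. No member had an unadjusted p under 0.05 in either comparison.

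Whether the change depended on the strain and tumor line was tested as an interaction over the same libraries, with 2 mice per cell. No gene passed an FDR of 0.05 in CAC vs. NOR, AM vs. CAC, or KD vs. CAC (0% called, with 4.89%, 12.4%, and 5.65% of genes at an unadjusted p under 0.05). The smallest p among the members was that of Lyz2 in AM vs. CAC, where the log2 change in BALB/c mice was lower than that in C57BL/6 mice by 1.56 (interaction -1.56, SE 0.19, unadjusted p = 0.000132 and FDR 0.212 in the edgeR fit). Lyz2 had a log2 ratio of means of 0.57 in C57BL/6 and -0.96 in BALB/c mice. C1qa had -0.80 (SE 0.22, edgeR FDR 0.326) for the same interaction, and Adgre1 -2.40 (SE 0.86, edgeR FDR 0.368), so that 3 of the 9 had an unadjusted p under 0.05 in AM vs. CAC, beside the 12.4% of all genes. In CAC vs. NOR Adgre1 had 2.03 (SE 0.78, edgeR FDR 0.998). Both Adgre1 values hold the high CAC replicate 4.

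Ratios between members compare genes within the same library. C1qb to C1qa in FPKM was 0.678 to 1.22 over the 16 mice (mean 0.981, SD 0.148), and C1qc to C1qa was 0.552 to 0.890, while C1qa itself varied 10.1-fold in CPM. Cd163 to Mrc1 in CPM was 0.344 to 0.861 in NOR, 0.965 to 1.80 in CAC, 0.440 to 0.602 in AM, and 0.429 to 1.10 in KD mice. The CAC mice thus had more Cd163 per Mrc1 than every NOR and every AM mouse (two-sided exact permutation test p = 0.0286 for each, the smallest that 4 against 4 mice can give), and the lymphocyte-rich CAC replicates 2 and 3 (1.05 and 0.965) also lay above all NOR and AM mice. C1qa to Csf1r was 0.647 to 1.76 in CAC, 0.527 to 0.599 in AM, and 0.521 to 0.656 in NOR mice, without overlap between CAC and AM (exact permutation p = 0.0286) and with overlap between CAC and NOR (exact permutation p = 0.0571). These 4 tests belong to a family of 30 on 6 ratios, which were chosen with the members' values known, and after Benjamini-Hochberg adjustment over the 30 the exact permutation p was 0.286 for each of the 3 at 0.0286 and 0.429 for the other, so that none passed.

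**Figure D4:**
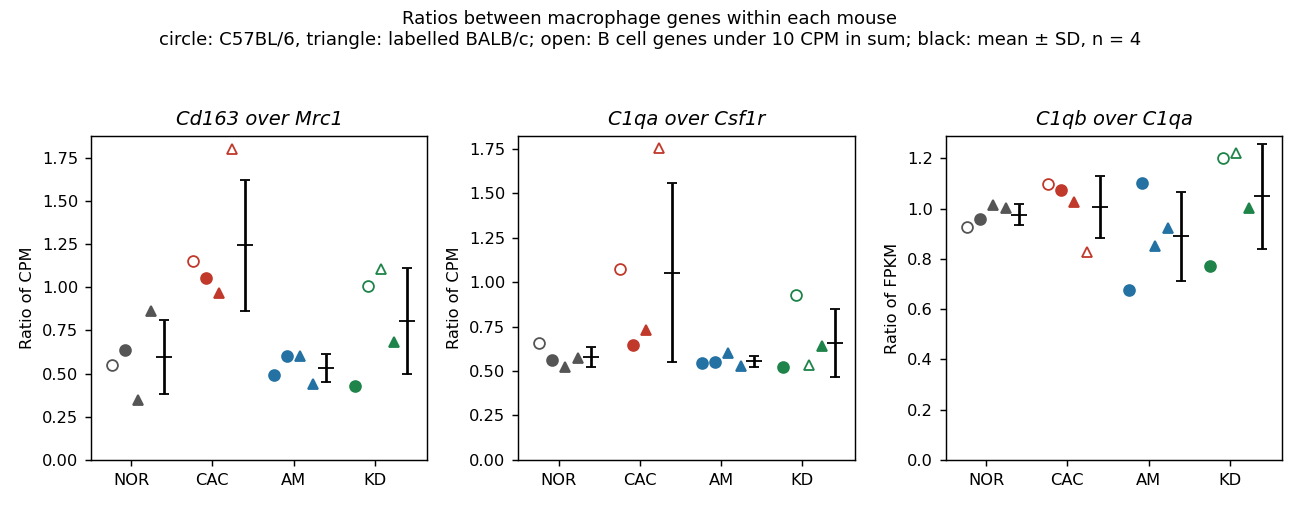
Ratio of Cd163 to Mrc1 and of C1qa to Csf1r (CPM) and of C1qb to C1qa (FPKM) within each mouse (vertical axes) in the 4 groups, with strains as circles and triangles, libraries with B cell genes under 10 CPM as open points, and the mean ± SD of 4 mice in black. For Cd163 to Mrc1 the 4 CAC mice lie between 0.965 and 1.80, above all NOR and AM mice.

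Across the 16 mice the members varied together to unequal degree, which is given as a description, since the mice share groups and the lowest libraries weigh heavily. On the log2 scale Pearson's r was 0.988 for C1qb and C1qc (Spearman's rho 0.982) and 0.973 without the 2 mice farthest from the median. For C1qa it was 0.967 with C1qb and 0.978 with C1qc, and 0.938 for Csf1r with Mrc1. The lowest was Adgre1 with Mrc1 at 0.421 (rho 0.329), which became 0.790 without CAC replicate 4 and KD replicate 3. Mrc1 with C1qb went the other way, from 0.725 to 0.283 without KD replicates 2 and 3. Of the 15211 other genes compared, 9 of the 10 most like the members' mean z-score are named here, the other being outside the naming rule: Aldh3b1 (r = 0.952), an aldehyde dehydrogenase, Cd302 (0.945), a C-type lectin of phagocytes, Fcgr2b (0.931), the inhibitory receptor for IgG, and Mme (0.929), neprilysin. Clec12a (0.917), Msr1 (0.916), Atl3 (0.913), Atp8b4 (0.912), and P2rx4 (0.910) followed. Without KD replicates 2 and 3 the r of these 9 genes was 0.791 to 0.902, and after subtracting group means it was 0.901 to 0.947.

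Other genes of macrophages and their relatives were taken from named lists. The counts are to be read against the share over all genes in CAC vs. NOR, 4.32% higher and 5.13% lower. In CAC vs. NOR, 2 of 20 other macrophage genes rose and 1 fell. Lgals3, galectin 3, was 8.10, 16.9, 16.3, and 29.7 CPM in NOR and 56.0, 35.6, 53.3, and 81.1 CPM in CAC mice, a log2 fold change of 1.68 (SE 0.38, edgeR FDR 0.0232). The groups did not overlap, as was so for 12.5% of all genes tested with CAC higher. Gpnmb, a glycoprotein of lysosome-rich phagocytes, rose by 1.12 on the log2 scale (edgeR FDR 0.0254), and Maf, a transcription factor of macrophages and of other cells, fell by 1.14 (edgeR FDR 0.0345). Of 13 genes of resident macrophages 1 fell, Folr2, a folate receptor, from 11.5 ± 4.70 to 5.60 ± 1.10 CPM (SD, n = 4, edgeR FDR 0.0485), and none rose. Folr2, Maf, and Gpnmb kept their calls in 1, 1, and 4 of the 8 fits that leave out a mouse, and Lgals3 in 5. In the lymphocyte-rich libraries none of these 4 genes was called, and with the lymphocyte score as covariate Folr2 was not.

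Of 10 monocyte genes 3 rose and 1 fell. Chil3, a chitinase-like protein, rose by 4.27 on the log2 scale (edgeR FDR 0.0207), Ifitm6 by 3.654 (0.00372), and Itgam, the CD11b integrin of monocytes and neutrophils, by 1.23 (0.0381). Fn1, fibronectin, which fibroblasts make too, fell by 1.22 (edgeR FDR 0.00823). Among 9 tested genes of inflammatory activation, Il1b rose by 2.78 (edgeR FDR 0.00416) from 0.259 to 0.685 CPM in NOR to 1.88 to 4.25 CPM in CAC mice. Among 6 tested genes of alternative activation, Tgm2, transglutaminase 2, rose by 1.12 (edgeR FDR 0.00195). Il4ra, the receptor chain for IL-4 and IL-13, rose by 0.97 (edgeR FDR 0.0164). The list did not move as a whole, with 3 of the 6 above 0, 3 below, and a median of 0.18. Itgam lost its call in all 8 fits that leave out a mouse, Chil3 in 2, Il4ra in 1 (without NOR replicate 3), and Ifitm6, Fn1, Il1b, and Tgm2 in none. In the lymphocyte-rich libraries Chil3, Itgam, and Il4ra were not called, while Ifitm6, Fn1, Il1b, and Tgm2 were, and with the lymphocyte score Itgam was not.

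Among complement and lysosome genes the share that passed was near that over all genes (9.45%). Of 15 complement genes, C1s1, a protease of the classical complement pathway, fell by 0.65 (edgeR FDR 0.00422). It was 48.9 to 62.1 CPM in NOR and 33.2 to 38.6 CPM in CAC mice. Of 14 lysosome genes Ctsl, cathepsin L, rose by 1.15 (edgeR FDR 0.0408). The Ctsl call was kept in 3 of the 8 fits that leave out a mouse. It was lost in the lymphocyte-rich libraries and with the lymphocyte score. None of 11 heme and iron recycling genes passed, Fth1 and Ftl1 being the most abundant. Of the other cell types, 6 of 12 neutrophil genes and 5 of 7 erythroid genes rose (Hba-a1 by 2.11 and Alas2 by 2.59 on the log2 scale), 1 of 6 endothelial genes rose (Pecam1, not called in the lymphocyte-rich libraries), and 2 of 6 fibroblast genes fell (Col1a1 and Dpt). No gene passed in the lists for B cells (8 genes), T cells (8), lymph node stroma (5), dendritic cells (7), mast cells (5), adipocytes (5), liver (1 tested), Schwann cells (5), muscle fibres (9), proliferation (5), or the Y chromosome (4). Of the 205 genes of these lists, some of them too low to test, 27 passed in all, against 9.45% of all genes tested. In the lymphocyte-rich libraries alone (3 NOR and 2 CAC mice) 17 passed, 13 of them among the 27, and with the lymphocyte score as covariate 40 passed, 24 of them among the 27.

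In AM vs. CAC 8 of the 205 genes passed, where the 205 include genes too low to test. That share is close to the 3.66% over all genes tested, so the count says nothing particular about these lists. Lgals3 fell by 1.25 (edgeR FDR 0.0234), Itgam by 1.13 (0.0268), Tgm2 by 0.78 (0.0137), and Lipa, lysosomal acid lipase, by 0.77 on the log2 scale (0.0490). Cx3cr1, the fractalkine receptor, rose by 1.47 (edgeR FDR 0.0436), Fn1 by 1.12 (0.0154), and the fibroblast genes Col1a1 and Dpt rose as well. Fn1, Tgm2, Col1a1, and Dpt kept their calls in all 8 fits that leave out a mouse, and Lgals3, Itgam, Lipa, and Cx3cr1 in 1 or 2. With the replicate number as a block 0 of all genes passed in AM vs. CAC, so none of the 8 calls was kept there. Against the lymphocyte-rich CAC mice alone Col1a1 was the 1 gene of the 8 still called, and with the lymphocyte score as covariate Lipa, Lgals3, and Cx3cr1 were not called.  In KD vs. CAC, AM vs. NOR, and KD vs. NOR 0 of the list genes passed.

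**Figure D5:**
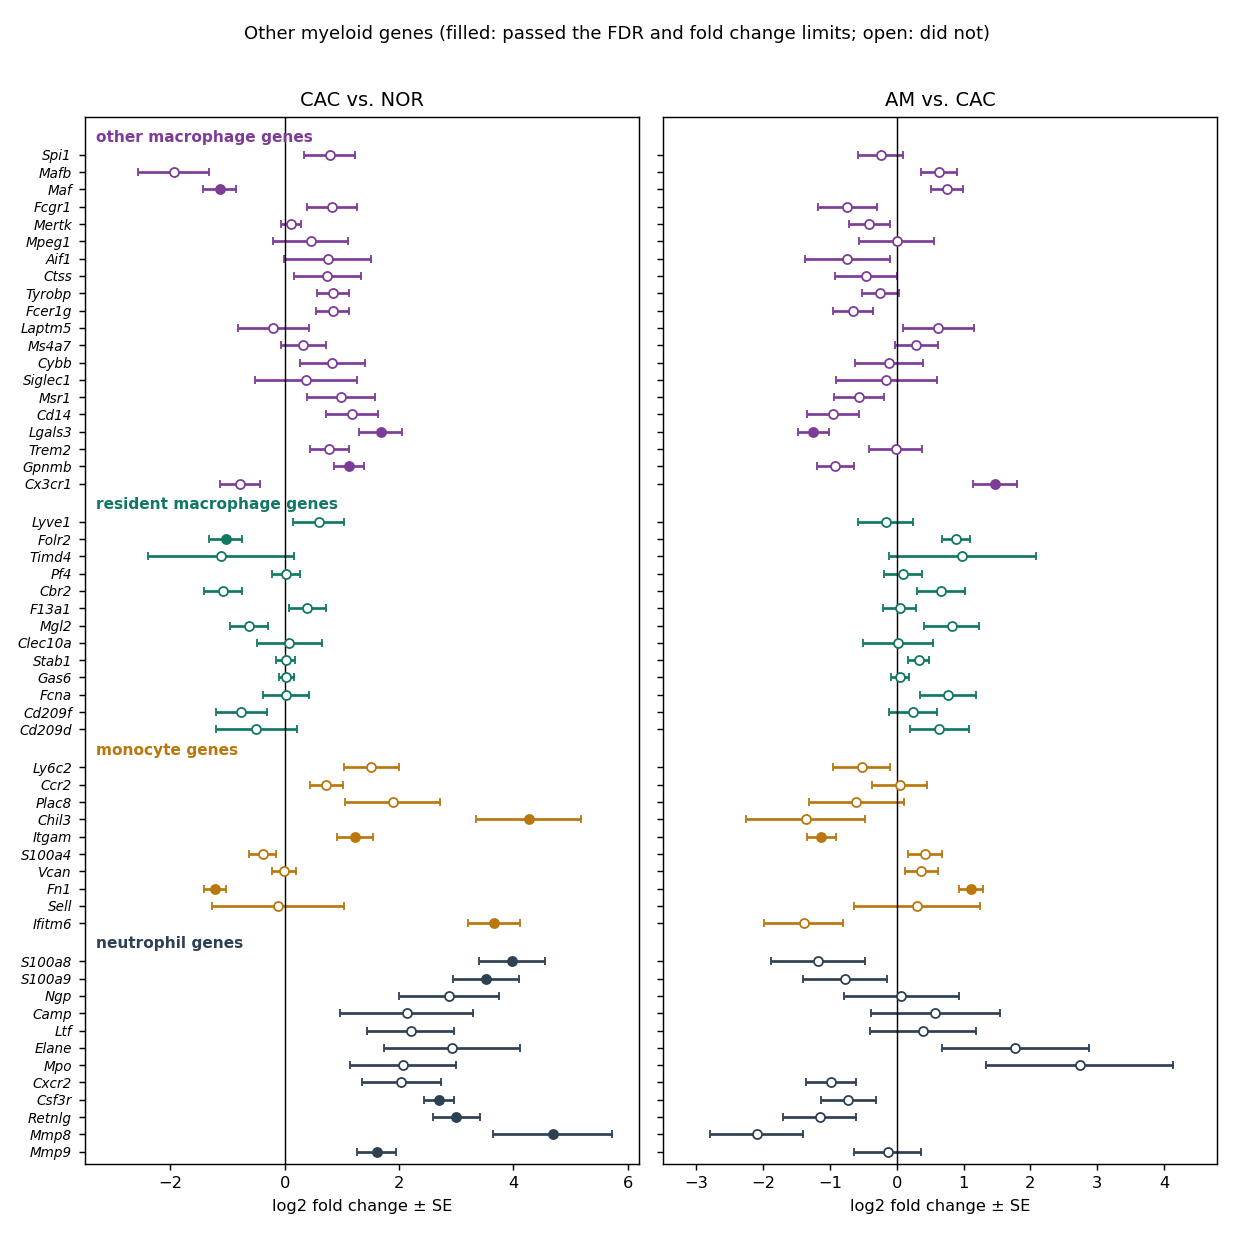
Log2 fold change ± SE (horizontal axes) of the genes of 4 lists in CAC vs. NOR and AM vs. CAC, filled where the gene passed the FDR and fold change limits. Lgals3 passes at 1.68 in CAC vs. NOR and at -1.25 in AM vs. CAC, panels that share the CAC mice, and the neutrophil genes lie at 1.61 or more in CAC vs. NOR.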

How the data were processed

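Gastrocnemius poly(A) RNA of 16 mice was sequenced by the authors. The submitters' processing notes name fastp, Bowtie2, HISAT2, and StringTie 1.3.1 and the builds mm9 and GRCm38, without roles. Strandedness is not given in the sources used here. The deposited table holds whole-number read counts per gene, not normalized, and FPKM values made by the authors. Columns were matched to mice by name. Of the identifiers, 21905 of 21923 matched GENCODE M21.

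Counts were fitted in edgeR 4.0.16 (R 4.3.3) on the 8 libraries of the groups compared: TMM scaling, the filterByExpr filter (min.count 10, min.total.count 15), glmQLFit, and the quasi-likelihood F test. Genes passed at a Benjamini-Hochberg FDR of at most 0.05, taken over all genes tested, and a ratio of 1.5 or more, or of 0.667 or less. The authors used NOISeq, which was not used here. FPKM served for the order of levels and the ratios among C1q chains, and correlations used log2 CPM. The pipeline was tested on simulated data. Alternatives were DESeq2 1.42.0, limma-voom (limma 3.58.1), other scalings, filters, covariates, and subsets of mice, and every mouse left out in turn. A lymphocyte score as covariate and splits at 10 CPM of B cell genes were alternatives chosen after seeing the data. Members and lists were chosen with earlier results of these data known. Beyond the members, genes named from a list are those that passed (at most 4 per list and comparison, by FDR), otherwise the 2 most abundant at most, with Lyz1 and the 10 genes most like the members, and no gene of the major histocompatibility complex is named, which left out 1 of the 10. Same-numbered mice did not deviate together throughout: r was -0.189 to 0.644 over the pairs of CAC vs. NOR and as low as -0.677 in KD vs. CAC, and in no comparison was it over 0.1 for every pair.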

Additional observations from a re-analysis of the deposited data

Results flagged for a closer look

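Adgre1 stood apart in CAC replicate 4, with 56.96 CPM against 7.05 to 15.1 CPM in the other CAC mice. The gap to the nearest mouse, divided by the range of the group, was above Dixon's limit of 0.829 for 4 samples. Of 36 groups tested (9 genes in 4 groups) this was the only one past the limit, and chance passes about 1 in 20. The other members of CAC replicate 4 were not past it.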

How the results depend on the processing

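No member passed the test outside CAC vs. NOR under any alternative run, but many of these fits called no gene at all, so that their count of 0 members says nothing. In AM vs. CAC this was so for C57BL/6 mice alone, BALB/c mice alone, and the replicate block, and in the KD comparisons and AM vs. NOR for nearly every setting apart from DESeq2 and, in KD vs. CAC, 1 fit over all 16 libraries (145 genes). In CAC vs. NOR BALB/c mice alone gave 0 genes and C57BL/6 mice alone 247. In CAC vs. NOR the count of members called was 0 under every alternative except without NOR replicate 4, where it was 1 (Cd163), so that leaving out a mouse gave 0 to 1. Same-numbered mice shared strain and, with a tumor, its cell line, but no label pairs them further, and the fit with a replicate block called 0 members in each comparison, and 1140 genes in CAC vs. NOR and 0 in AM vs. CAC over all genes, against 1386 and 537 without it and 1492 and 339 with strain as covariate. Over all genes DESeq2 called 1979 genes in CAC vs. NOR (edgeR 1386). In AM vs. CAC it called 1130 (edgeR 537), and in KD vs. CAC 327 (edgeR 1). It called 78 in AM vs. NOR and 38 in KD vs. NOR, where edgeR called 0. The 398 genes called in CAC vs. NOR in lymphocyte-rich libraries and the 18 in AM vs. CAC come from fewer mice.

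The sign of the log2 fold change turned for these members, none past the threshold, and the cause was not tested. With total-count scaling the value in CAC vs. NOR was Csf1r 0.048. With total-count scaling the values in KD vs. NOR were Adgre1 0.0094 and C1qc 0.046. With C57BL/6 mice alone the values in CAC vs. NOR were Adgre1 -0.045, Csf1r 0.14, and Mrc1 0.43. With C57BL/6 mice alone the values in AM vs. CAC were Adgre1 0.40, Cd68 0.18, Lyz2 0.58, and C1qa 0.045. With C57BL/6 mice alone the values in KD vs. CAC were Adgre1 0.070 and Lyz2 0.35. With C57BL/6 mice alone the value in KD vs. NOR was C1qc 0.17. With the lymphocyte score as covariate the values in CAC vs. NOR were Csf1r 0.28 and Mrc1 0.0039. With the lymphocyte score as covariate the values in KD vs. CAC were Cd68 -0.29, Csf1r -0.48, and Mrc1 -0.32. With the lymphocyte score as covariate the values in KD vs. NOR were Adgre1 0.061 and C1qc 0.29. With lymphocyte-rich libraries alone the value in CAC vs. NOR was Csf1r 0.047. With lymphocyte-rich libraries alone the values in KD vs. CAC were Adgre1 0.31, Cd163 0.31, Lyz2 0.30, C1qa 0.29, C1qb 0.050, and C1qc 0.14. With lymphocyte-rich libraries alone the values in AM vs. NOR were Cd163 -0.0082, C1qb -0.028, and C1qc -0.066. With lymphocyte-rich libraries alone the values in KD vs. NOR were Adgre1 0.56 and C1qc 0.52. With lymphocyte-poor libraries alone the values in CAC vs. NOR were Csf1r 0.47 and Mrc1 0.34. With lymphocyte-poor libraries alone the values in KD vs. CAC were Cd68 -1.15, Csf1r -1.49, and Mrc1 -1.85. With lymphocyte-poor libraries alone the values in KD vs. NOR were Csf1r -1.03, Mrc1 -1.51, Cd163 -0.58, Lyz2 -0.017, C1qa -0.82, and C1qb -0.44. With limma-voom the values in KD vs. CAC were Cd68 -0.42, Csf1r -0.47, and Mrc1 -0.22. With limma-voom the values in KD vs. NOR were Csf1r -0.50, Mrc1 -0.44, Cd163 -0.061, Lyz2 -0.054, C1qa -0.36, and C1qb -0.28. With the replicate block the values in KD vs. CAC were Cd68 -0.36, Csf1r -0.46, and Mrc1 -0.28. With the replicate block the values in KD vs. NOR were Csf1r -0.57, Mrc1 -0.49, Cd163 -0.066, Lyz2 -0.13, C1qa -0.37, and C1qb -0.28. With BALB/c mice alone the values in KD vs. CAC were Cd68 -0.016 and Csf1r -0.17. With BALB/c mice alone the values in AM vs. NOR were Adgre1 -0.068, Cd68 -0.19, Csf1r -0.071, Cd163 -0.093, Lyz2 -0.23, C1qa -0.035, C1qb -0.22, and C1qc -0.14. With BALB/c mice alone the values in KD vs. NOR were Csf1r -0.41, Mrc1 -0.092, Lyz2 -0.36, C1qa -0.22, and C1qb -0.19. With all 16 libraries in 1 fit the value in KD vs. NOR was Csf1r -0.00088. With no count filter the value in CAC vs. NOR was the interaction with strain for C1qc -0.022.

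Leaving out a mouse also turned signs, and the ranges over the 8 fits follow. In CAC vs. NOR the log2 fold change ran over Csf1r -0.30 to 0.12 and Mrc1 -0.36 to 0.047. In AM vs. CAC the log2 fold change ran over Cd68 -0.18 to 0.094. In KD vs. CAC the log2 fold change ran over Cd68 -0.42 to 0.42, Csf1r -0.46 to 0.43, and Mrc1 -0.099 to 0.79. In AM vs. NOR the log2 fold change ran over Cd163 -0.019 to 0.68, C1qb -0.049 to 0.40, C1qc -0.066 to 0.38, and Adgre1 -0.10 to 0.28. In KD vs. NOR the log2 fold change ran over Csf1r -0.53 to 0.35, C1qa -0.29 to 0.44, C1qb -0.42 to 0.35, C1qc -0.52 to 0.31, Mrc1 -0.27 to 0.62, Cd163 -0.35 to 0.70, Lyz2 -0.25 to 0.60, Adgre1 -0.48 to 0.24, and Cd68 -0.0072 to 0.82.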
